A study of Mus musculus with 72 samples.

Results

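The collagen genes were taken as every row of the deposited count table whose symbol reads Col, a number, the letter a and a number, with 1 such gene left out. This gave 43 genes of the 20105 in the table. A mean of at least 1 CPM (counts per 1000000 counts of the scaled library total) in at least 1 of the 18 groups was reached by 32 of them, and these are described. The other 11 stayed below that level in every group: Col2a1, Col6a4, Col8a2, Col9a1, Col9a2, Col10a1, Col11a1, Col17a1, Col19a1, Col26a1 and Col28a1. The genes nearest to the limit were Col9a3 with a highest group mean of 1.03 CPM inside it and Col28a1 with 0.726 CPM outside it.

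RNA was measured in liver nuclei of 36 mice, with a library of whole liver nuclei and a library of bead-bound hepatocyte nuclei from each animal. All mice, controls included, carried CAG-Sun1/sfGFP with Albumin-Cre, which marks the nuclear envelope with a fluorescent protein wherever the albumin promoter has been active, so that their nuclei can be pulled out with beads. BALB/c mice received C26 or NC26 tumour cells or the saline PBS, and C57BL/6N mice received 8025 or MC38 tumour cells or PBS. C26 and 8025 are the tumours described as causing cachexia, the wasting that accompanies some cancers, and NC26 and MC38 as leaving body weight stable. Every one of the 4 cohorts came with 4 PBS animals of its own and 4 tumour-bearing animals, and the C26 cohort had 4 more tumour-bearing animals labelled pre-cachexia. Cachectic C26 and 8025 animals had lost more than 10% of body weight when livers were taken, at zeitgeber time 9 h, and no such loss is given for the pre-cachexia or PBS animals. The tag marks hepatocytes, so that stellate cells, fibroblasts, endothelial cells and Kupffer cells, the resident macrophages, are in whole liver nuclei and should be depleted from the bead-bound fraction.

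Collagens are chains that wind around each other into a rope-like helix, and most are secreted. Col13a1, Col23a1 and Col25a1 encode transmembrane collagens. Fibrillar collagens (types I, III, V, XI, XXIV and XXVII) form fibrils, and fibril-associated collagens such as type XIV sit on the surface of fibrils. Types I and III form the tension-bearing fibres of scars. Type IV collagens form the sheet-like network of basement membranes, type VI collagens form beaded filaments, and types XV and XVIII, the multiplexins, carry sugar chains and lie in basement membrane zones. In liver, activated hepatic stellate cells and portal fibroblasts are known as the main makers of fibrillar collagen in fibrosis, endothelial and stellate cells make type IV collagen, and hepatocytes are known to make type XVIII collagen.

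Total counts ran from 12239096 to 30324405 in the whole liver libraries and from 8487495 to 56380860 in the hepatocyte libraries, and the 43 collagens together took between 0.0824% and 0.189% of them. Reads were counted over whole gene spans, introns included, so values describe nuclear and largely unspliced RNA, not collagen protein. In bulk nuclei, fewer cells of a type and less RNA per cell cannot be told apart. The albumin gene Alb itself was kept at 92.1% in hepatocyte nuclei of PBS animals, and most markers of other liver cells were kept at far lower shares, such as Stab2 of sinusoidal endothelium at 15.6%, Myh11 of smooth muscle at 13.9% and Mrc1 of Kupffer cells at 12.9%. Among the exceptions in the marker lists was Sox5 of the stellate list, at 119.7%, with a mean of 982 CPM in whole liver nuclei and 1192 CPM in hepatocyte nuclei of PBS animals. Sox5 thus carries much of the summed stellate levels given below, and those sums do not measure stellate cells alone. The fractions of C26 PBS animal 1 stood apart: its hepatocyte library held 852% of the whole liver level of Col5a3, against 101% to 175% in the other C26 PBS animals.

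The collagen with the highest level per length in PBS livers was Col18a1, the chain of type XVIII collagen whose end fragment is endostatin. Its gene lies at chr10:77052179-77166530 (mm10), and it averaged 4.54 CPM per kb of gene span in whole liver nuclei and 6.02 CPM per kb in hepatocyte nuclei over 16 PBS animals. Col27a1, a fibrillar chain best known from cartilage (chr4:63215412-63334990), followed with 2.21 and 3.14 CPM per kb, and Col5a3, a chain of type V collagen (chr9:20770050-20815034), with 1.89 and 2.85 CPM per kb. In whole liver nuclei Col3a1 came next with 0.969 CPM per kb, then Col20a1 with 0.678 and Col1a1 with 0.438. In hepatocyte nuclei Col20a1 followed with 0.858 CPM per kb, and Col3a1 stood at 0.168 CPM per kb. The first 3 places were the same in both fractions, and the fibre-forming type I and III chains dropped down the order in hepatocyte nuclei. Col18a1 alone made up 40% of the counts of all 43 collagens in whole liver nuclei of PBS animals (28.1% to 54.4%) and 50% in hepatocyte nuclei (37% to 63.9%). The end of Col18a1 shares 8824 bases with Slc19a1 on the opposite strand, and how strand was used in the counting is not given in the sources used here, so reads of both genes in that stretch cannot be told apart.

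The share of each collagen kept in hepatocyte nuclei was the fitted ratio of its level in the hepatocyte library to that in the whole liver library over the 16 PBS animals. Differences count as called when edgeR's quasi-likelihood test, with Benjamini-Hochberg adjustment over all genes of a fit, gave a p under 0.05, and every adjusted p below is of this test. Of 14054 genes, 50.9% were called in this comparison, 26.4% higher and 24.5% lower in hepatocyte nuclei. Of the 35 collagens tested, 3 were called higher and 23 lower in hepatocyte nuclei. Of those 26, 3 (Col8a2, Col19a1 and Col28a1, all lower) lie under the limit of 1 CPM. Kept above the whole liver level were Col5a3 at 150.2% (adjusted p = 0.0096), Col27a1 at 142% (adjusted p = 0.035) and Col18a1 at 135% (adjusted p = 0.0025). Without C26 PBS animal 1 these shares were 139% for Col5a3 (adjusted p = 0.036), 135% for Col27a1 and 128% for Col18a1 (adjusted p = 0.016), and Col27a1 was then no longer called (adjusted p = 0.089). Its call also ended without 8025 PBS animal 1 (log2 ratio 0.47), MC38 PBS animal 3 (0.47) or NC26 PBS animal 4 (0.50), against 0.51 with all animals, although its hepatocyte level exceeded its whole liver level in all 16 PBS animals.

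Under 30% was kept of 16 of the 32 collagens, 30% to 60% of 2, 60% to 100% of 6 and more than 100% of 8. The 16 held the type I and III chains (Col1a1 16.1%, Col1a2 17.9%, Col3a1 16.5%), the type VI chains Col6a1, Col6a2, Col6a3 and Col6a5 (16.9% to 18.5%), and Col14a1, which coats collagen fibrils, at 18.9%. They also held Col5a1, Col5a2, Col13a1, Col16a1, Col24a1, Col4a1, Col4a3 and Col4a4 (16.3% to 29.3%). The basement membrane chains Col4a1 (29.3%), Col4a6 (32.4%) and Col4a2 (37.7%) were kept more than the type I chains. Col4a5 at 77.8% was not called in this fit (adjusted p = 0.065), which does not pair both libraries of a mouse. Col6a6, unlike the other type VI chains, was kept at 62.2%. Col23a1 was called lower at 75.3% (adjusted p = 0.043), a call that ended without any of 10 PBS animals (8025 animals 3 and 4, C26 animals 1 to 3, MC38 animals 2 to 4, NC26 animals 2 and 4; log2 ratio -0.42 to -0.28 against -0.41). With the animal as a block, which pairs both libraries of a mouse, 30 collagens were called in place of 26, the additions being Col15a1 and Col20a1 (log2 ratios 0.21 and 0.28) and Col7a1 (0.39) as higher and Col4a5 (-0.38, adjusted p = 3.9e-05) as lower. The fits with an animal left out held no such block. The median share over the 32 collagens was 30.9%, and over all genes of the fit it was 105%.

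**Figure D1:**
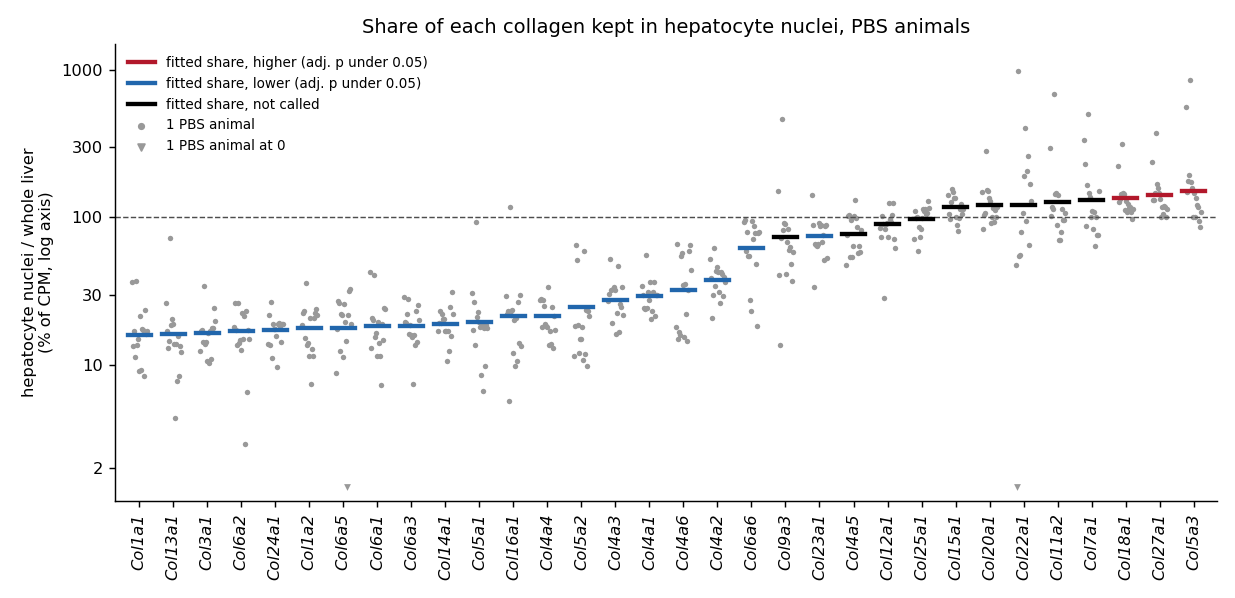
Share of each of the 32 collagens kept in hepatocyte nuclei, as the percentage of its whole liver CPM (vertical log axis) for each of the 16 PBS animals (grey points, triangles at 0) and as the fitted share (bars, coloured by call). Col1a1, Col1a2, Col3a1, Col6a1, Col6a2, Col6a3 and Col6a5 sit at 16.1% to 18.5%, Col6a6 at 62.2%, and Col18a1, Col27a1 and Col5a3 sit at 135% to 150.2%.

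The sequences before the starts of 3 of these genes are printed, since Col27a1 and Col5a3 were kept above 100% and Col3a1 at 16.5%. Each run holds the 250 bases before the RefSeq transcript start on the gene's strand, from build GRCm38 (mm10), at chr4:63215162-63215411 (plus strand) for Col27a1, chr9:20815068-20815317 (minus strand) for Col5a3 and chr1:45311288-45311537 (plus strand) for Col3a1. They read 5′ to 3′, with capitals for matches on either strand to the TATA box (TATAAA), the CCAAT box (CCAAT), the GC box (GGGCGG), the STAT motif (TTCNNNGAA) and the E-box (CACGTG).
Col27a1: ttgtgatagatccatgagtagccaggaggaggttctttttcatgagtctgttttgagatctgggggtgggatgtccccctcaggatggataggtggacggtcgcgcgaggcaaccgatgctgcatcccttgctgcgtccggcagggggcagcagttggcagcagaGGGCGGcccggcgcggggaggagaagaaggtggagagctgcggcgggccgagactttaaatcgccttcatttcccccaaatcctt
Col5a3: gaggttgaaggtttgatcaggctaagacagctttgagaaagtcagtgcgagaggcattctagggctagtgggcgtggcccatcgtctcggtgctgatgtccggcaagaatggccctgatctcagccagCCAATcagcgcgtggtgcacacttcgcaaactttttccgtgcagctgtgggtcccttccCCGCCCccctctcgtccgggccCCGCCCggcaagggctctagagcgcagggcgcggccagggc
Col3a1: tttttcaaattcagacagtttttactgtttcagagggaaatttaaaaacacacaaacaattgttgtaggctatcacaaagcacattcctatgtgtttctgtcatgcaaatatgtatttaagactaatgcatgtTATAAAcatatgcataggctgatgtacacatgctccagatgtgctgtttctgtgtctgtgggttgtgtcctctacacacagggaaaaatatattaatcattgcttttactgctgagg
In the Col27a1 window GGGCGG begins 85 bases before the start. The Col5a3 window holds CCAAT 122 bases before the start and GGGCGG on the reverse strand at 63 and 41 bases. The Col3a1 window holds TATAAA at 117 bases. TATAAA occurred in 5 of 37 windows of that length before collagen starts and in 12.4% of 32851 such windows of all genes, CCAAT in 13 and 33.8%, GGGCGG in 21 and 32.7%, TTCNNNGAA in 2 and 7.02%, and CACGTG in 0 and 6.02%. Matches to these letters describe the sequence and show no binding.

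In C26 cachexia, 13 of 35 collagens tested in whole liver nuclei were called against PBS, 5 higher and 8 lower, where 22.1% of all genes were called (11.8% higher, 10.3% lower). Col27a1 fell most. It stood at 183, 303, 385 and 197 CPM in PBS animals 1 to 4 and at 60.5, 42.3, 23.2 and 33.7 CPM in cachectic animals (log2 fold change -2.75, SE 0.40, adjusted p = 7.0e-06). The lowest PBS animal was above the highest cachectic animal. Col6a3, the longest chain of the beaded filaments, stood at 27.9, 23.8, 27.9 and 32.5 CPM in PBS animals and at 15.9, 12.7, 14.7 and 12.4 CPM in cachexia (log2 fold change -1.03, SE 0.21, adjusted p = 6.1e-04). Col4a4, a basement membrane chain known best from the kidney filter, stood at 6.51, 6.26, 6.54 and 7.40 CPM in PBS animals and at 3.33, 3.16, 3.14 and 3.05 CPM in cachexia (log2 fold change -1.09, SE 0.25, adjusted p = 0.002). For both, no cachectic animal reached the lowest PBS animal.

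Col18a1 rose in the same livers. Its levels were 260.3, 321, 421 and 439.6 CPM in PBS animals and 642, 617, 630.3 and 739 CPM in cachexia, without overlap (log2 fold change 0.85, SE 0.24, adjusted p = 0.0094). Col6a6 was also higher, at 5.64, 5.40, 5.64 and 7.0 CPM in PBS animals and 11.8, 9.87, 10.3 and 9.46 CPM in cachexia (log2 fold change 0.79, SE 0.23, adjusted p = 0.015). Type VI chains thus went in both directions, and Col6a1 and Col6a2, whose chains join that of Col6a3 in the filament, had log2 fold changes of -0.59 and -0.73 that were not called (adjusted p = 0.17 and 0.055). Col12a1 (-1.77) and Col24a1 (-1.06) were also called lower, and so were Col5a3 (-1.29), Col3a1 (-1.09) and Col4a3 (-0.84). Col25a1 (1.80), Col22a1 (1.78) and Col13a1 (0.92) were called higher. Col22a1 was near the floor, at 0 to 0.656 CPM in whole liver nuclei and 0 to 0.75 CPM in hepatocyte nuclei of the 16 PBS animals. Its highest group mean was 2.33 CPM, in hepatocyte nuclei of C26 cachexia.

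Col3a1 stood at 60.6, 59.3, 71.9 and 83.6 CPM in C26 PBS animals and at 38.1, 27.8, 45.4 and 19.4 CPM in cachexia. Col1a1, a chain of type I collagen, stood at 10.5, 9.18, 14.4 and 16.5 CPM and at 5.81, 4.75, 8.27 and 2.83 CPM, and its log2 fold change of -1.23 was not called (SE 0.51, adjusted p = 0.081). For both genes all PBS animals lay above all cachectic animals. Its partner Col1a2 stood at 21.8, 18.4, 24.5 and 28.7 CPM and at 13.4, 14.3, 21.9 and 11.8 CPM, with overlap (log2 fold change -0.62, SE 0.35, adjusted p = 0.21). Col14a1 was at 83.3, 71.3, 83 and 95.8 CPM in PBS animals and 78.8, 53.6, 69.6 and 49.0 CPM in cachexia (log2 fold change -0.43, SE 0.16, adjusted p = 0.053). Col4a1 and Col4a2, the common basement membrane chains, were at 39.5 to 57.9 and 30.5 to 48.1 CPM in PBS animals and at 42.0 to 58.5 and 39.9 to 56.4 CPM in cachexia, and were not called (log2 fold changes 0.08 and 0.34).

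The calls of Col27a1, Col6a3, Col4a4, Col12a1, Col24a1, Col18a1 and Col6a6 held without any 1 of the 8 animals. Those of 6 others ended without 1 animal. Col22a1 fell to a log2 fold change of 1.18 without cachexia animal 3, Col4a3 to -0.67 without cachexia animal 4 or PBS animal 1, and Col3a1 to between -1.08 and -0.92 without cachexia animals 2 or 4 or PBS animals 3 or 4. Col5a3 went to between -1.21 and -1.06 without cachexia animals 2, 3 or 4 or PBS animals 2 or 4. Col25a1 went to between 1.42 and 1.75 without cachexia animals 1 or 3 or PBS animals 3 or 4, and Col13a1 to between 0.71 and 0.91 without cachexia animals 3 or 4 or PBS animals 1, 2 or 4. When the fit held only the 8 libraries of these groups, 18 collagens were called, the 5 added being Col1a1 (adjusted p = 0.011), Col1a2 (0.042), Col6a1 (0.04), Col6a2 (0.028) and Col7a1 (0.043), all lower. The share of all genes called in that fit was not counted.

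In hepatocyte nuclei, 9 of 33 collagens tested were called in C26 cachexia, 4 higher and 5 lower, where 22.2% of all genes were called (12.2% higher, 10% lower). Col27a1 stood at 684, 511, 610.4 and 289 CPM in PBS animals and at 103, 66.3, 33.8 and 34 CPM in cachexia (log2 fold change -3.16, SE 0.45, adjusted p = 6.7e-06). Col6a6 stood at 3.08, 2.97, 1.56 and 1.62 CPM in PBS animals and at 13.2, 10.0, 9.37 and 12.4 CPM in cachexia (log2 fold change 2.27, SE 0.43, adjusted p = 2.4e-04). Col7a1, the chain of anchoring fibrils, stood at 4.97, 2.0, 1.42 and 1.42 CPM in PBS animals and at 0.486, 1.2, 0.551 and 0.640 CPM in cachexia (log2 fold change -1.74, SE 0.42, adjusted p = 0.003). None of these 3 genes overlapped between the groups, but they were chosen by their p in this comparison, so the separation adds nothing to the tests. PBS animal 1, whose fractions stood apart, was the highest in Col27a1 and Col7a1, and without it their log2 fold changes were -3.04 (adjusted p = 2.8e-05) and -1.18 (adjusted p = 0.03). Col18a1 rose from 826, 469, 609.9 and 492 CPM to 1109.9, 1065, 1081 and 859 CPM (log2 fold change 0.77, SE 0.24, adjusted p = 0.018).

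The others called in hepatocyte nuclei were Col25a1 (2.44), Col22a1 (2.10), Col12a1 (-1.70), Col5a3 (-1.22) and Col6a3 (-0.75). Type I, III and XIV collagens were low there and were not called. Col1a1 was at 1.26 to 3.90 CPM in PBS animals and 0.727 to 1.65 CPM in cachexia, Col3a1 at 8.23 to 20.8 and 3.43 to 7.99 CPM, and Col14a1 at 14.7 to 18.6 and 10.4 to 19.9 CPM. The call of Col18a1 ended without PBS animal 2 (0.66) or 4 (0.68), and that of Col12a1 without cachexia animal 3 (-1.57). The call of Col6a3 ended without cachexia animals 2 or 3 or PBS animals 1, 3 or 4 (-0.79 to -0.57). Fitted on the libraries of these groups alone, Col5a3 (adjusted p = 0.054) and Col6a3 (0.058) were not called.

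Markers of other liver cells were read in the same libraries. Of all genes, 22.1% were called in whole liver nuclei and 22.2% in hepatocyte nuclei of C26 cachexia. Endothelial, stellate and portal fibroblast counts lay near or below these shares in both fractions. In whole liver nuclei of C26 cachexia 4 of 8 Kupffer cell markers, 3 of 14 endothelial (1 lower), 2 of 15 stellate and 1 of 8 portal fibroblast markers (1 lower) were called higher, and 2 of 5 smooth muscle markers were lower. Summed levels in PBS and cachectic animals were 302 to 415 and 432 to 614 CPM for Kupffer cells, 1254 to 1369 and 1463 to 1643 CPM for endothelium, 1828 to 2000.1 and 1895 to 2005 CPM for stellate cells and 32.6 to 55.0 and 62.4 to 109.9 CPM for portal fibroblasts. They were 54.8 to 72.3 and 70.8 to 88.4 CPM for cholangiocytes, 39.9 to 56.2 and 29.0 to 44.7 CPM for mesothelium and 21.1 to 47.2 and 14.4 to 35.6 CPM for smooth muscle. In hepatocyte nuclei of C26 cachexia 6 of 8 Kupffer, 3 of 14 endothelial, 2 of 14 stellate, 1 of 7 cholangiocyte and 1 of 4 portal fibroblast markers tested were higher. Summed levels there were 42 to 68.4 and 76.2 to 119 CPM for Kupffer cells, 209 to 366 and 325 to 479 CPM for endothelium, 1244 to 2044 and 1329 to 1583 CPM for stellate cells and 31.1 to 49.8 and 41.3 to 153 CPM for portal fibroblasts. Of 10 hepatocyte markers 2 were higher and 1 lower in whole liver nuclei of either model. No marker was at 0 in a whole group, except in hepatocyte nuclei of the MC38 cohort. There Upk3b of the mesothelial list was at 0 in PBS animals, and Mfap4 of the portal fibroblast list in tumour-bearing animals. The part of these cells in the collagen changes was not tested.

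Before cachexia the C26 animals differed from PBS in few collagens, and both comparisons use the same PBS animals. In whole liver nuclei 1 collagen was called, where 12.8% of all genes were (8.72% higher, 4.04% lower). This was Col27a1, at 68.3, 91.8, 162 and 97.0 CPM in pre-cachexia animals, all below the PBS animals and above the cachectic animals (log2 fold change -1.33, SE 0.38, adjusted p = 0.02). In hepatocyte nuclei 4 were called, where 7.72% of all genes were (4.78% higher, 2.94% lower): Col27a1 (-1.53, adjusted p = 0.025) and Col7a1 (-1.76, adjusted p = 0.0099) were lower, and Col6a6 (1.54, adjusted p = 0.023) and Col25a1 (2.09, adjusted p = 0.039) were higher. Col7a1 stood at 0.727, 0.547, 0.681 and 0.966 CPM in hepatocyte nuclei of pre-cachexia animals, close to its cachexia levels. Col6a6 stood at 7.40, 3.63, 6.62 and 9.80 CPM, between its PBS and cachexia levels in 3 of 4 animals.

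Most of these early calls ended when 1 animal was left out. That of Col27a1 in whole liver nuclei ended without PBS animal 3 (-1.11) or pre-cachexia animals 1 (-1.19), 2 (-1.27) or 4 (-1.29), and in hepatocyte nuclei without the same animals (-1.47 to -1.39). That of Col6a6 ended without PBS animals 3 or 4 or pre-cachexia animals 1 or 4 (1.30 to 1.5), and that of Col25a1 without any of 6 animals (1.70 to 2.34; PBS animals 1 to 4, pre-cachexia animals 1 and 4). The call of Col7a1 held without any 1 animal, and ended on the libraries of these groups alone (adjusted p = 0.062).

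From pre-cachexia to cachexia, 8 of 35 collagens were called in whole liver nuclei, where 11.6% of all genes were (4.68% higher, 6.94% lower), and 4 of 33 in hepatocyte nuclei, where 9.09% were (4.81% higher, 4.27% lower). Col22a1, near the floor in PBS animals, rose in both fractions (log2 fold changes 2.14 and 2.42). Col27a1 (-1.43 and -1.63), Col5a3 (-1.61 and -1.47) and Col3a1 (-1.15 and -1.25) fell in both. Col14a1 (-0.55), Col6a3 (-0.66) and Col24a1 (-0.87) fell and Col13a1 (1.02) rose in whole liver nuclei. Col3a1 was at 58.3, 92.0, 58.4 and 75.2 CPM in whole liver nuclei before cachexia, level with the PBS animals, and every cachectic animal was lower. Of the 8 whole liver calls, those of Col22a1 and of no other gene held without any 1 animal. Col27a1 went to between -1.32 and -1.13 without cachexia animals 3 or 4 or pre-cachexia animal 3, Col5a3 to -1.37 without pre-cachexia animal 2, and Col3a1 to between -1.13 and -0.95 without cachexia animals 2 or 4 or pre-cachexia animals 2 or 4. The call of Col14a1 ended without cachexia animals 2 or 4 or pre-cachexia animals 2 or 4 (-0.53 to -0.42). Those of Col6a3 (-0.66 to -0.58), Col13a1 (0.85 to 1.06) and Col24a1 (-0.91 to -0.67) ended without any of cachexia animals 2, 3 and 4 and pre-cachexia animals 1, 2 and 4. In hepatocyte nuclei the call of Col27a1 ended without cachexia animals 3 or 4 or pre-cachexia animal 3 (-1.46 to -1.30), and that of Col3a1 without cachexia animal 4 (-1.06) or pre-cachexia animals 2 (-1.27) or 4 (-1.21). On the libraries of these groups alone the hepatocyte call of Col5a3 (-1.49, adjusted p = 0.069) and the whole liver calls of Col14a1 (adjusted p = 0.068) and Col24a1 (0.14) ended. Added there were Col1a1 in hepatocyte nuclei (-1.27, adjusted p = 0.034) and Col1a1 (-1.25, adjusted p = 0.046) and Col12a1 (-1.2, adjusted p = 0.048) in whole liver nuclei.

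**Figure D2:**
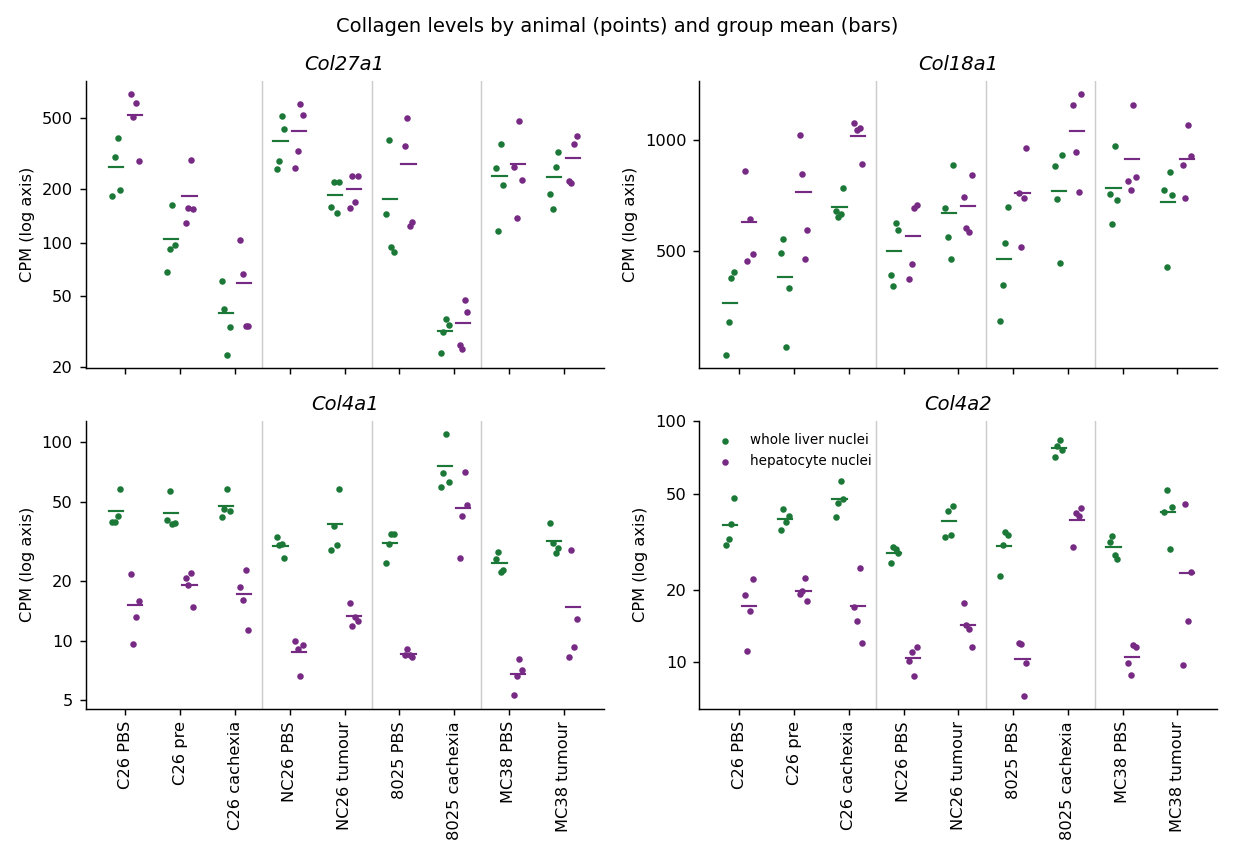
CPM (vertical log axes) of Col27a1, Col18a1, Col4a1 and Col4a2 in each animal (points) with group means (bars), for whole liver nuclei (green) and hepatocyte nuclei (purple) in the 9 groups. Col27a1 is lowest in the C26 and 8025 cachexia groups in both fractions, and Col4a1 and Col4a2 are highest in the 8025 cachexia group.

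In 8025 cachexia, 18 of 35 collagens tested in whole liver nuclei were called against PBS, 12 higher and 6 lower, where 36.6% of all genes were called (18.7% higher, 17.9% lower). The smallest p belonged to the basement membrane chains, whose genes start side by side on chromosome 8 in opposite directions. Col4a2 stood at 22.8, 30.6, 34.8 and 33.6 CPM in PBS animals and at 71.0, 79.0, 83.9 and 75.7 CPM in cachexia (log2 fold change 1.30, SE 0.15, adjusted p = 4.9e-08). Col4a1 stood at 24.7, 30.8, 34.5 and 34.7 CPM and at 59.8, 70.5, 110.1 and 62.8 CPM (log2 fold change 1.24, SE 0.20, adjusted p = 9.5e-06). Every cachectic animal was above every PBS animal for both. Col27a1 went the other way, as in C26 cachexia, from 145, 379, 94.9 and 88.6 CPM to 23.8, 31.4, 37.1 and 34.6 CPM (log2 fold change -2.52, SE 0.40, adjusted p = 9.7e-06). PBS animal 2 was by far the highest of the PBS animals for Col27a1, and without it the log2 fold change was -1.84, still called.

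The other pair of basement membrane chains fell in whole liver nuclei of the same animals. Col4a4 stood at 4.91, 4.44, 3.62 and 3.39 CPM in PBS animals and at 2.06, 1.04, 2.74 and 0.660 CPM in cachexia (log2 fold change -1.30, SE 0.27, adjusted p = 3.5e-04), and Col4a3 fell by 1.41 on the log2 scale (SE 0.26, adjusted p = 7.7e-05). Neither overlapped between groups. In hepatocyte nuclei neither was called in 8025 or C26 cachexia, with log2 fold changes of -0.06 for each in C26. The spans of Col4a4 and Col4a3 lie head to head with 71 bases between them (chr1:82586850-82586920, mm10), printed from the RefSeq build on the minus strand, that of Col4a4, because these chains moved together and against Col4a1 and Col4a2.
Col4a4 to Col4a3: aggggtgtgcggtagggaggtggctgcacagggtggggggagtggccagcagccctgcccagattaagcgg
None of the 5 motifs above occurs in these bases. The X-linked pair Col4a5 and Col4a6, whose spans lie 1342 bases apart, was not called (log2 fold changes 0.30 and 0.06). Levels of Col4a1 and Col4a2 include any reads of the antisense models that overlap them, and Col4a3 shares 30132 bases with another transcript on the opposite strand.

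The type I and III chains were higher on average in 8025 cachexia, through 2 of the 4 animals. Col1a1 stood at 1.35, 4.37, 7.11 and 5.52 CPM in PBS animals and at 25.4, 5.62, 42.1 and 4.47 CPM in cachexia (log2 fold change 2.05, SE 0.52, adjusted p = 0.0026). Col1a2 stood at 7.0, 5.92, 8.51 and 9.03 CPM and at 31.9, 11.7, 44.2 and 7.69 CPM (log2 fold change 1.61, SE 0.36, adjusted p = 8.1e-04). Col3a1 stood at 31.3, 24, 24.9 and 31.5 CPM and at 69.7, 28.3, 129 and 18.5 CPM (log2 fold change 1.10, SE 0.37, adjusted p = 0.019). In all 3 genes cachectic animals 1 and 3 were above every PBS animal and animal 4 lay within or below the PBS range, so that the groups overlapped. Without animal 3 the log2 fold changes were 1.36 for Col1a1 and 1.15 for Col1a2, both still called, and 0.46 for Col3a1, which was not. The call of Col3a1 also ended without PBS animal 2 (1.02). Col14a1 went down instead, from 60.2, 51.4, 48.1 and 48.8 CPM to 34.7, 40.3, 32.1 and 48.3 CPM (log2 fold change -0.47, SE 0.16, adjusted p = 0.023), with the highest cachectic animal just inside the PBS range.

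The remaining calls in whole liver nuclei were Col22a1 (2.30), Col15a1 (1.14), Col13a1 (1.03), Col6a5 (1.0), Col6a6 (0.79), Col16a1 (0.66) and Col5a2 (0.54) as higher and Col24a1 (-1.56) and Col5a3 (-1.17) as lower. Col6a6 stood at 3.38, 5.99, 6.70 and 5.87 CPM in PBS animals and at 6.08, 13.7, 8.34 and 11.1 CPM in cachexia, with overlap. Col18a1 stood at 323, 403, 524 and 657 CPM and at 853, 690.2, 464 and 911 CPM, and its log2 fold change of 0.57 was not called (SE 0.24, adjusted p = 0.059). Col6a3 had a log2 fold change of 0.10 (SE 0.21). The calls of Col4a1, Col4a2, Col4a3, Col4a4, Col1a1, Col1a2, Col22a1, Col24a1 and Col27a1 held without any 1 animal, with Col22a1 at 3.33 without PBS animal 4. Calls ended for Col13a1 without cachexia animal 1 (0.77) or PBS animal 4 (0.85), for Col15a1 without PBS animal 2 (1.01), and for Col6a6 without cachexia animal 2 or PBS animal 1 (0.61 each). They ended for Col14a1 without cachexia animals 1 or 3 or PBS animal 1 (-0.43 to -0.37), for Col16a1 without cachexia animals 1 or 3 or PBS animals 1 or 4 (0.49 to 0.63) and for Col5a2 without cachexia animals 1 or 3 or PBS animals 1 or 2 (0.41 to 0.51). They ended for Col5a3 without cachexia animals 1 or 2 or PBS animal 3 (-1.10 to -0.75) and for Col6a5 without cachexia animal 3 or PBS animals 1 or 2 (0.65 to 1.02).

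When the fit held only the 8 libraries of these groups, 9 collagens were called in whole liver nuclei in place of 18. The share of all genes called in that fit was not counted. Col1a1 (adjusted p = 0.059), Col3a1 (0.13), Col5a2 (0.093), Col5a3 (0.083), Col6a5 (0.057), Col6a6 (0.066), Col14a1 (0.056) and Col16a1 (0.11) lost their calls. Col22a1 did not pass the filter on low counts there and was not tested.

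In hepatocyte nuclei of 8025 cachexia, 12 of 33 collagens tested were called, 8 higher and 4 lower, where 29.3% of all genes were called (16.2% higher, 13.1% lower). Col4a1 stood at 8.45, 9.10, 8.46 and 8.26 CPM in PBS animals and at 26.2, 42.4, 70.7 and 48.2 CPM in cachexia (log2 fold change 2.39, SE 0.30, adjusted p = 8.3e-07). Col4a2 stood at 12.0, 11.9, 7.25 and 9.95 CPM and at 30.1, 41.5, 40.4 and 43.5 CPM (log2 fold change 1.84, SE 0.29, adjusted p = 1.5e-05). Col27a1 stood at 347, 500.4, 124 and 129.9 CPM and at 26.7, 25.2, 47.8 and 40.7 CPM (log2 fold change -3.03, SE 0.45, adjusted p = 7.7e-06). None of the 3 overlapped between groups, and they too were chosen by their p in this comparison. The hepatocyte share of Col4a1 was 34.3%, 29.6%, 24.5% and 23.8% in PBS animals and 43.8%, 60.1%, 64.2% and 76.8% in cachexia, but the difference between the fractions in its response was not called (log2 difference 1.17, SE 0.36, adjusted p = 0.55).

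Cachectic animals 1 and 3 again stood above the others in the type I and III chains of the hepatocyte fraction. Col1a1 was at 0.497, 0.584, 1.21 and 0.626 CPM in PBS animals and 6.01, 0.961, 8.49 and 0.960 CPM in cachexia (log2 fold change 2.54, SE 0.60, adjusted p = 0.0019). Col1a2 was at 1.32, 1.34, 1.98 and 1.38 CPM and 7.76, 2.20, 8.13 and 1.92 CPM (log2 fold change 1.71, SE 0.38, adjusted p = 0.0011). Col3a1 was at 3.92, 4.05, 4.29 and 4.5 CPM and 12.4, 5.03, 19.7 and 3.57 CPM (log2 fold change 1.23, SE 0.37, adjusted p = 0.011). The groups overlapped in all 3. Without cachexia animal 3 the log2 fold change was 1.89 for Col1a1, still called, and 0.67 for Col3a1, not called.

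Col22a1 (3.04), Col16a1 (1.42) and Col6a6 (1.32) were also higher in hepatocyte nuclei of 8025 cachexia, and Col5a3 (-1.46), Col24a1 (-1.33) and Col14a1 (-0.55) were lower. Col6a6 stood at 3.16, 5.80, 3.96 and 4.69 CPM in PBS animals and at 8.05, 16.5, 10.1 and 11.4 CPM in cachexia, and Col14a1 at 10.2, 9.98, 11.2 and 9.38 CPM and at 7.46, 7.69, 6.34 and 7.57 CPM, neither with overlap. Col7a1 at 1.43, 1.71, 1.76 and 2.0 CPM and at 1.95, 0.848, 1.32 and 1.12 CPM was not called, nor was Col18a1 at 514 to 949 and 721 to 1333 CPM. Calls ended for Col6a6 without cachexia animal 2 (1.08) or PBS animal 1 (1.17), for Col14a1 without cachexia animal 3 or PBS animals 1 or 3 (-0.56 to -0.50) and for Col24a1 without cachexia animals 3 or 4 or PBS animals 1 or 2 (-1.27 to -1.16). That of Col16a1 ended without cachexia animals 1 or 3 or PBS animals 1, 2 or 4 (0.69 to 1.61), and Col22a1 was at 4.30 without PBS animal 3. On the libraries of these groups alone Col3a1 (adjusted p = 0.082) and Col16a1 (0.15) were not called.

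In whole liver nuclei of 8025 cachexia 8 of 8 Kupffer cell markers, 6 of 14 endothelial markers (2 lower), 5 of 7 cholangiocyte markers, 4 of 8 portal fibroblast markers, 2 of 5 mesothelial markers tested (1 lower) and 1 of 15 stellate markers (1 lower) were called higher, and 1 of 5 smooth muscle markers was lower. Their summed levels in PBS and cachectic animals were 235 to 313 and 594 to 936 CPM for Kupffer cells, 938 to 1156 and 1033 to 1249.6 CPM for endothelium, 52.6 to 71.0 and 69.7 to 141 CPM for cholangiocytes and 17.1 to 31.6 and 94.6 to 158 CPM for portal fibroblasts. They were 1209.5 to 2101 and 1184 to 1486 CPM for stellate cells, 33.5 to 59.9 and 26 to 46.4 CPM for mesothelium and 14.9 to 47.3 and 9.78 to 16.9 CPM for smooth muscle. Of the portal fibroblast list, Gas6, kept at 73.8% in hepatocyte nuclei, had a log2 fold change of 2.47 and Fbln2 of 1.22. In hepatocyte nuclei of 8025 cachexia 7 of 8 Kupffer, 5 of 7 cholangiocyte, 3 of 14 endothelial, 2 of 14 stellate (1 lower), 1 of 4 portal fibroblast and 1 of 2 mesothelial markers tested were higher. Summed levels there were 40.2 to 51.1 and 123 to 151 CPM for Kupffer cells, 137 to 216 and 229.6 to 345 CPM for endothelium, 51.6 to 81.9 and 70.7 to 143 CPM for cholangiocytes, 862 to 1246 and 1001 to 1073 CPM for stellate cells and 15.4 to 25 and 111 to 196 CPM for portal fibroblasts. Of all genes, 36.6% were called in whole liver nuclei and 29.3% in hepatocyte nuclei of 8025 cachexia. Stellate and smooth muscle counts in whole liver nuclei lay below these shares, as did endothelial, stellate and portal fibroblast counts in hepatocyte nuclei. The part of these cell types in the collagen changes was not tested.

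**Figure D3:**
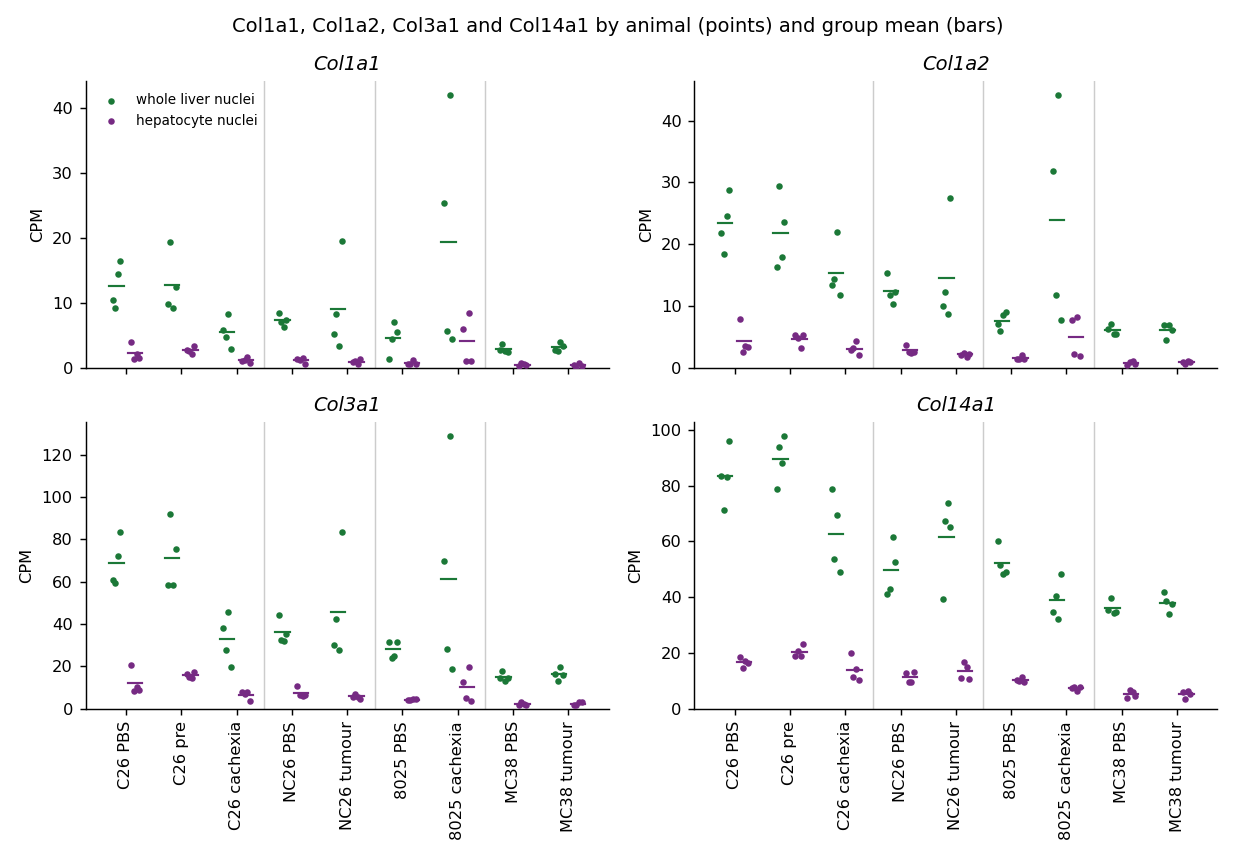
CPM (linear axes from 0) of Col1a1, Col1a2, Col3a1 and Col14a1 in each animal (points) with group means (bars), for whole liver nuclei (green) and hepatocyte nuclei (purple) in the 9 groups. In the 8025 cachexia group 2 animals, at 25.4 and 42.1 CPM for Col1a1 in whole liver nuclei, stand apart from the other 2, at 5.62 and 4.47 CPM.

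Both cachexia models were compared with their own PBS animals and share none. In whole liver nuclei 9 collagens were called in both, which is 69.2% of the 13 called in C26 and 50% of the 18 called in 8025. Over all genes 1833 were called in both, 60.3% of those in C26 and 36.5% of those in 8025, and 97.3% of these had the same direction. The 9 collagens had the same direction except Col3a1: Col27a1, Col24a1, Col5a3, Col4a3 and Col4a4 were lower and Col22a1, Col13a1 and Col6a6 higher. In hepatocyte nuclei 4 were called in both, Col27a1 and Col5a3 lower and Col22a1 and Col6a6 higher, 44.4% of the 9 in C26 and 33.3% of the 12 in 8025, where over all genes the shares were 56.9% and 43.2%, with 99.3% in the same direction. The shares of the collagens were not tested against those of all genes. The difference between the C26 and 8025 effects in whole liver nuclei was called for 8 of 35 collagens, where 6.57% of all genes were called (1.97% higher, 4.6% lower), and in all 8 the C26 effect was the lower. These were Col1a1 (log2 difference -3.29, SE 0.73, adjusted p = 0.0056), Col1a2 (-2.24, SE 0.50, adjusted p = 0.006), Col3a1 (-2.19, SE 0.52, adjusted p = 0.0086), Col4a1 (-1.16, SE 0.27, adjusted p = 0.0086) and Col4a2 (-0.96, SE 0.21, adjusted p = 0.0047), then Col6a3 (-1.13), Col12a1 (-1.99) and Col6a2 (-1.29). For Col27a1 the difference was -0.23 (SE 0.54, adjusted p = 0.86), with a standard error that leaves room for differences of either sign.

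Without 8025 cachexia animal 3 the difference was -2.57 for Col1a1 and -1.53 for Col3a1, still called, and -0.75 for Col6a3, -0.81 for Col12a1 and -0.99 for Col6a2, no longer called. The call of Col12a1 also ended without 8025 PBS animals 1, 2 or 4, C26 cachexia animals 1, 3 or 4 or C26 PBS animals 2, 3 or 4 (-2.01 to -1.85). That of Col6a2 ended without 8025 cachexia animal 1, 8025 PBS animals 1, 2 or 4, C26 cachexia animals 1, 2 or 4 or C26 PBS animals 1, 3 or 4 (-1.33 to -1.14). Fitted on the libraries of these 4 groups alone, 5 collagens were called, Col25a1 among them as an addition (2.70, adjusted p = 0.028), and Col3a1 (adjusted p = 0.052), Col6a2 (0.085), Col6a3 (0.08) and Col12a1 (0.15) were not.

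**Figure D4:**
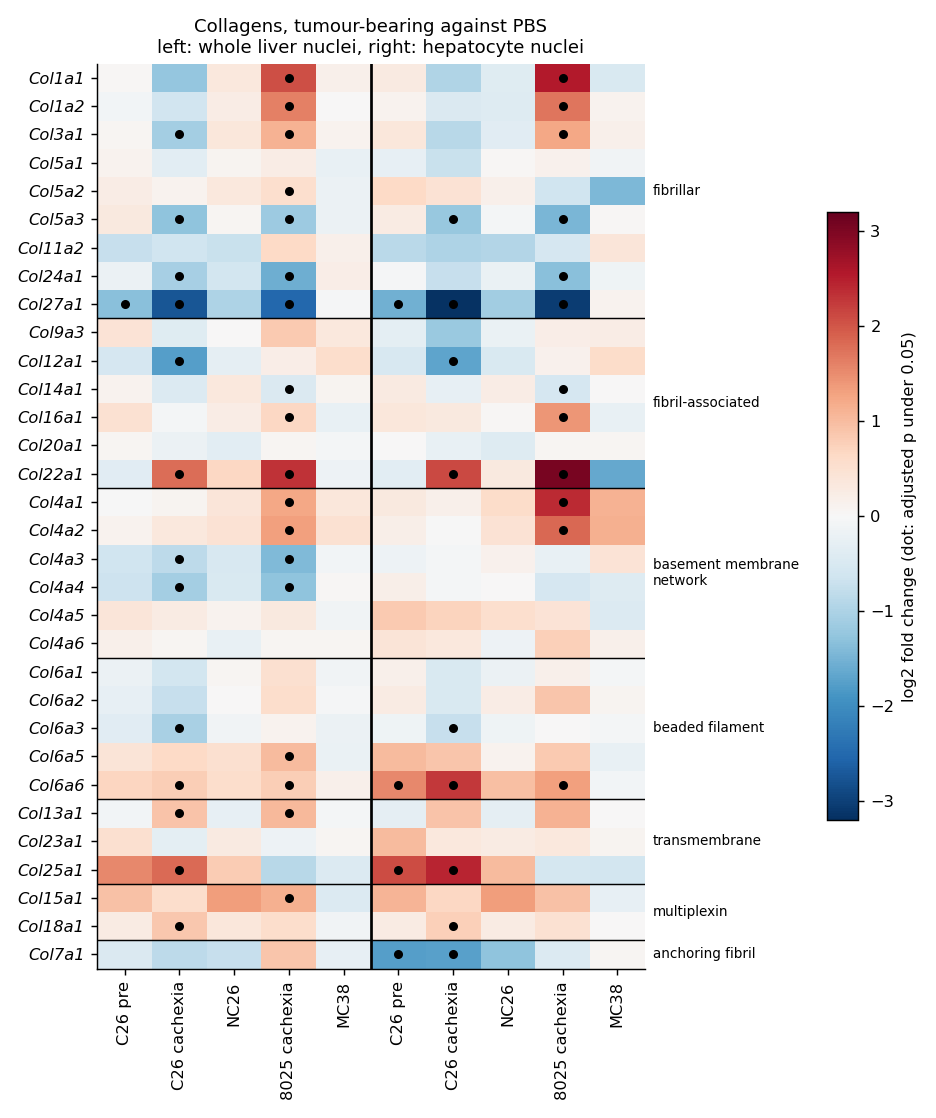
Log2 fold changes (colour) of the 32 collagens, grouped by structural family, in 5 tumour groups against their PBS animals, in whole liver nuclei (left 5 columns) and hepatocyte nuclei (right 5 columns), with a dot where the adjusted p was under 0.05. The NC26 and MC38 columns hold no dot, and Col1a1, Col1a2, Col4a1 and Col4a2 have dots in both 8025 cachexia columns and in neither C26 cachexia column.

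With edgeR fitted on all libraries of a fraction, no collagen was called in either weight-stable tumour. In NC26 0.728% of all genes were called in whole liver nuclei (0.706% higher, 0.0218% lower) and 0.324% in hepatocyte nuclei (0.316% higher, 0.00753% lower), and in MC38 0% were in both. At an unadjusted p under 0.05 there were 6 collagens in NC26 and 1 in MC38 in whole liver nuclei, and 5 and 3 in hepatocyte nuclei. The share of all genes at that unadjusted p was not counted, so these counts show nothing particular to collagens. Col15a1 in whole liver nuclei of NC26 was called by DESeq2 (log2 fold change 1.33, adjusted p = 0.021) and by edgeR on the libraries of these groups alone (1.32, adjusted p = 0.027), where edgeR on all libraries gave 1.34 (SE 0.35, adjusted p = 0.069) and the levels were 18.8 ± 4.98 CPM in PBS and 47.1 ± 12.7 CPM in NC26 animals (SD, n = 4) without overlap. Col27a1 in NC26 stood at 259, 286, 513 and 434 CPM in whole liver nuclei of PBS animals and at 158, 218, 146 and 218 CPM in tumour-bearing animals, also without overlap (log2 fold change -1.0, SE 0.38, adjusted p = 0.26). In hepatocyte nuclei it stood at 261, 327, 598 and 521 CPM and at 157, 238, 169.9 and 237 CPM (log2 fold change -1.11, SE 0.42, adjusted p = 0.28). In MC38 Col27a1 was at 264, 116, 360.1 and 211 CPM in whole liver nuclei of PBS animals and at 188, 154, 265 and 323 CPM with tumours, with overlap.

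NC26 animal 4 had the highest whole liver levels of that group in the type I and III chains, with Col1a1 at 19.5 CPM against 3.32 to 8.31 CPM in the other 3 and Col3a1 at 83.6 against 27.6 to 42.2 CPM. MC38 animal 2 had the highest hepatocyte levels of Col4a1 (28.5 CPM, against 8.22 to 12.9 in the others) and Col4a2 (45.4 against 9.71 to 23.6 CPM). Neither gene was called in MC38 (adjusted p = 0.4 and 0.38, log2 fold changes 1.11 and 1.14).

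The C26 effect did not differ from the NC26 effect for any collagen at an adjusted p under 0.05 with edgeR, where 3.4% of all genes were called (1.67% higher, 1.73% lower). There were 8 collagens at an unadjusted p under 0.05, where the share of all genes was not counted. They were led by Col14a1 (log2 difference -0.76, adjusted p = 0.06) and Col27a1 (-1.76, SE 0.54, adjusted p = 0.063), and DESeq2 called these 2 (adjusted p = 0.042 and 0.025). On the libraries of the 4 groups alone edgeR called 3, Col27a1 (adjusted p = 0.021), Col12a1 (0.029) and Col6a3 (0.03). The 8025 effect differed from the MC38 effect for 8 collagens, where 13.5% of all genes were called (7.58% higher, 5.96% lower). Col27a1 (-2.49, SE 0.54, adjusted p = 0.0023), Col24a1 (-1.77), Col4a3 (-1.31) and Col4a4 (-1.33) were lower, and Col4a2 (0.82, SE 0.21, adjusted p = 0.0086), Col4a1 (0.87), Col1a2 (1.61) and Col15a1 (1.59) higher in 8025. Without 8025 PBS animal 2 the difference for Col27a1 was -1.81, still called. The call of Col4a1 ended without 8025 cachexia animal 3, 8025 PBS animal 1, MC38 PBS animal 2 or MC38 tumour animals 2 or 3 (0.66 to 0.86). That of Col1a2 ended without 8025 cachexia animals 1 or 3, 8025 PBS animals 1 or 2, MC38 PBS animal 2 or MC38 tumour animal 2 (1.15 to 1.57). That of Col15a1 ended without 8025 cachexia animals 2 or 4, 8025 PBS animals 1, 2 or 3, MC38 PBS animal 1 or MC38 tumour animals 1, 3 or 4 (1.18 to 1.64). On the libraries of these 4 groups alone 5 collagens were called, without Col15a1, Col1a2 and Col4a4 (adjusted p = 0.1, 0.084 and 0.081).

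No collagen differed between fractions in its response to cachexia with edgeR and no block, for C26 or 8025, where 0% and 0.0427% of all genes were called, and DESeq2 called 0 in both. At an unadjusted p under 0.05 there were 3 collagens each, Col4a3, Col4a4 and Col6a6 for C26 and Col4a1, Col4a3 and Col7a1 for 8025. The share of all genes at that unadjusted p was not counted. With the animal as a block, 2 were called for C26, Col6a6 (log2 difference 1.49, adjusted p = 0.027) and Col25a1 (0.59, adjusted p = 0.0084), both with the larger rise in hepatocyte nuclei. The hepatocyte share of Col6a6 was 54.5%, 55%, 27.7% and 23.2% in C26 PBS animals and 91.2%, 131%, 101% and 112% in cachexia. The share of Col4a3 was 19.2%, 32.8%, 33.7% and 32% in PBS animals and 35%, 72.1%, 57.6% and 46.1% in cachexia, with log2 fold changes of -0.84 in whole liver nuclei and -0.06 in hepatocyte nuclei.

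Control livers of the 2 strains differed in most collagens. The strains also differ in cohort, which cannot be told apart from strain, while cohorts of both strains occur in both number series of the libraries. Over 8 PBS animals a strain, 21 of 35 collagens were called in whole liver nuclei, 16 higher and 5 lower in BALB/c, where 39.6% of all genes were called (18.2% higher, 21.4% lower), and 20 of 33 in hepatocyte nuclei, 14 higher and 6 lower, where 41.2% were (20.5% higher, 20.7% lower). Col20a1 was at 33.0 ± 10.7 CPM in BALB/c and 9.08 ± 2.51 CPM in C57BL/6N whole liver nuclei (SD, n = 8) without overlap (log2 fold change 1.82, adjusted p = 1.5e-10). Col6a5 (2.09), Col1a2 (1.32), Col3a1 (1.27) and Col6a2 (1.09) were also higher in BALB/c without overlap. Col4a5 (-1.10), Col23a1 (-1.0), Col5a3 (-1.14), Col25a1 (-1.46) and Col18a1 (-0.50) were lower in BALB/c, and the call of Col18a1 ended without 8025 PBS animal 4 (-0.40) or MC38 PBS animal 3 (-0.42). Col20a1, Col6a5, Col1a2 and Col3a1 in hepatocyte nuclei had log2 fold changes of 2.08, 2.35, 1.62 and 1.60.

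Levels per length of chains that assemble with each other were compared as ratios within animals. The per-kb ratio of Col1a1 to Col1a2 had group medians from 0.818 to 1.58 over the 9 whole liver groups and 0.739 to 1.47 over the hepatocyte groups. The ratio of Col4a1 to Col4a2 ran from 0.956 to 1.45 and from 0.749 to 1.27, and that of Col4a3 to Col4a4 from 0.791 to 1.2 in whole liver nuclei and from 1 to 2.3 in hepatocyte nuclei, a wider range. The group medians of Col6a1 lay above those of Col6a2 in every group, with ratios of 1.78 to 2.52 in whole liver nuclei and 1.65 to 3 in hepatocyte nuclei. These are ratios over gene spans with introns.

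Genes that process, cross-link or bind collagens were counted from lists written for this purpose. The counts stand against 36.6% of all genes called in 8025 and 22.1% in C26 cachexia in whole liver nuclei, and 29.3% and 22.2% in hepatocyte nuclei, and several lists lie near these shares. Of 29 genes of collagen synthesis and cross-linking in the table, 12 of 26 tested were higher and 1 lower in whole liver nuclei of 8025 cachexia, and 5 were higher and 3 lower in C26 cachexia. In hepatocyte nuclei 8 of 24 were higher and 1 lower in 8025, and 4 higher and 5 lower in C26. Adamts2, which trims the ends of type I and III procollagen, rose in both models (log2 fold changes 1.96 and 1.24 in whole liver nuclei of 8025 and C26, 3.97 and 2.72 in hepatocyte nuclei). P4ha1, a subunit of the prolyl hydroxylase that stabilises the collagen helix, fell in C26 cachexia (-2.08 and -2.18), Colgalt1, which adds galactose to collagen, rose in hepatocyte nuclei of 8025 (0.71), and its relative Colgalt2 fell in whole liver nuclei of 8025 (-1.29).

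With 36.6% of all genes called in 8025 and 22.1% in C26 whole liver nuclei, of 16 genes of collagen degradation and its inhibitors 5 of 13 tested were higher and 2 lower in whole liver nuclei of 8025 cachexia and 2 higher and 3 lower in C26. Mmp14, a membrane-bound collagenase, rose in both (1.29 and 1.11, and 1.58 and 2.11 in hepatocyte nuclei). Mmp8, a neutrophil collagenase, rose in whole liver nuclei of C26 (3.89) at very low levels. These were 0.441 ± 0.401 CPM in cachexia and 0.028 ± 0.056 CPM in PBS animals (SD, n = 4). Mmp15 fell in hepatocyte nuclei of C26 (-1.45). Of 10 collagen receptors, 4 of 8 tested were higher and 1 lower in 8025 and 1 higher and 1 lower in C26 whole liver nuclei, in C26 close to the share of all genes. Itga2, a collagen-binding integrin chain, rose in both (2.52 and 2.48, and 4.30 and 3.88 in hepatocyte nuclei), Lair1, an inhibitory collagen receptor of leukocytes, rose in 8025 (1.57 and 1.86), and Itga10 fell in C26 (-1.84 and -1.65).

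Of 18 matrix partners, 6 were higher and 3 lower in whole liver nuclei of 8025 cachexia and 1 higher and 3 lower in C26, where 36.6% and 22.1% of all genes were called. Fn1, fibronectin, rose in both (1.56 and 1.80), Vcan, the large proteoglycan versican, rose in 8025 (4.10 and 3.14), Dcn rose in hepatocyte nuclei of C26 (0.86), and Fmod, a fibril-binding proteoglycan, fell in whole liver nuclei of C26 (-2.32). Of 16 genes of TGF beta signalling, the main inducer of collagen genes in fibrosis, 5 were higher and 1 lower in whole liver nuclei of 8025 and 1 higher and 3 lower in those of C26, both near the shares of all genes. In hepatocyte nuclei 6 were higher and 2 lower in 8025, where 29.3% of all genes were called. There 1 was higher and 3 lower in C26, where 22.2% were called. Ltbp4, which stores latent TGF beta, fell in both models and fractions (-1.72 to -1.52), Ltbp3 rose in 8025 (1.39 and 1.64), Tgfbr3 rose in whole liver nuclei of C26 (0.65), and Smad7 fell in hepatocyte nuclei of C26 (-1.67).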

How the data were processed

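Nuclear RNA of 72 libraries (36 mice, whole liver and hepatocyte nuclei) was analysed from a table of raw counts deposited by the authors, made per the file headers over whole gene spans with introns. The same table gives gene lengths, which the authors deposited and which were not used for tests. STAR 2.4.2a, the mm10 genome and DESeq2 1.24.0 are named per the submitters' processing notes, and how strand was used is not given in the sources used here. Total RNA was sequenced in pairs of 50 bases without selection of poly-A tails, per the labels' protocols.

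Genes were filtered with filterByExpr, scaled with TMM and tested with edgeR 4.0.16 (quasi-likelihood F test, limma 3.58.1, R 4.3.3), with Benjamini-Hochberg adjustment over all genes of a fit and a threshold of 0.05. Fits held all 36 whole liver libraries (13738 genes), all 36 hepatocyte libraries (13274 genes) or all 72 (14054 genes). The code was tested on simulated data. Printed CPM use library totals times the TMM factors of the 72-library fit. Both libraries of a mouse are paired by design: their deviations from the group means correlated at a median of 0.54, and 34 of 36 correlated best with their own partner. Alternatives were DESeq2 1.42.0, its size factors, no filter, the compared groups alone, a replicate block and leaving out each animal.

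Values are given by animal for the 3 collagens with the smallest p in each cachexia comparison and for Col1a1, Col1a2, Col3a1, Col4a1, Col4a2, Col14a1 and Col18a1; other called collagens are named. From each pathway list the 2 called genes with the smallest p per cachexia comparison are named, and from each cell type list the 2 most abundant in whole liver nuclei of PBS animals. Other genes with values by animal were chosen after their values were seen. Whether animals of compared groups overlapped describes single genes, and the share of all genes without overlap was not counted. The members and lists were chosen with earlier results of these data known. Of the genes that match the symbol pattern, 1 is not reported here, and neither are some genes that the rule names from the other lists.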

Additional observations from a re-analysis of the deposited data

Results flagged for a closer look

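Among 12 collagens in 18 groups of 4 animals, 12 of 216 sets of values (5.56%) held an animal whose gap to its nearest neighbour took more of the range than Dixon's test allows at its 95% level. Chance gives about 1 in 20 such sets. In hepatocyte nuclei the animals far above the others were C26 PBS animal 1 for Col3a1 (20.8 CPM, others 8.23 to 10.2) and Col7a1 (4.97, others 1.42 to 2.0), NC26 PBS animal 1 for Col3a1 (10.8, others 5.72 to 6.48), MC38 PBS animal 3 for Col18a1 (1246, others 730.2 to 796) and Col4a4 (1.38, others 0.474 to 0.579), and 8025 PBS animal 3 for Col1a2 (1.98, others 1.32 to 1.38). Far below the others were 8025 cachexia animal 3 for Col14a1 (6.34 CPM, others 7.46 to 7.69) and NC26 tumour animal 4 for Col4a4 (0.874, others 1.26 to 1.34). In whole liver nuclei C26 PBS animal 4 was far above the others for Col4a1 (57.9 CPM, others 39.5 to 42.3) and Col6a6 (7.0, others 5.40 to 5.64), pre-cachexia animal 2 for Col4a1 (56.7, others 38.9 to 40.5) and NC26 tumour animal 4 for Col7a1 (2.02, others 0.375 to 0.573).

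The effects of tumour groups against their own PBS animals differed in whole liver nuclei by the test of the difference itself. C26 and 8025 animals also differed in strain and cohort, and 8025 and MC38 animals in cohort, which cannot be told apart from the tumour. Between 8025 and MC38 the log2 differences were -2.49 for Col27a1, -1.77 for Col24a1, -1.31 for Col4a3, -1.33 for Col4a4, 0.82 for Col4a2, 0.87 for Col4a1, 1.61 for Col1a2 and 1.59 for Col15a1. Between C26 and 8025 they were -3.29 for Col1a1, -2.24 for Col1a2, -2.19 for Col3a1, -1.16 for Col4a1, -0.96 for Col4a2, -1.13 for Col6a3, -1.99 for Col12a1 and -1.29 for Col6a2.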

How the results depend on the processing

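Of 152 calls of single collagens, 0 reversed direction in any alternative. DESeq2 kept 152, its size factors in edgeR 151, no filter 146, the compared groups alone 125 and the replicate block 137, and 53 ended when some animal was left out. On the libraries of the compared groups alone the number called was 9 for 8025 cachexia, 5 for 8025 against MC38, 5 for C26 against 8025, 3 for C26 against NC26, 3 for pre-cachexia and 1 for NC26, all in whole liver nuclei. With DESeq2 it was 4 for pre-cachexia, 2 for C26 against NC26 and 1 for NC26. The cause was not tested. The share of all genes called in the alternatives, those with an animal left out included, was not counted.

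Same-numbered animals of different groups correlated at -0.25 to 0.36, and in no comparison did every pair exceed 0.1, so the numbers were not taken to pair animals across groups. With this replicate block 2 collagens were called for pre-cachexia in whole liver nuclei, and 8 in place of 12 for 8025 cachexia in hepatocyte nuclei. With the animal as a replicate block 2 were called for the difference between fractions in C26 cachexia and 30 for the fractions of PBS animals.

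Leaving out each animal gave 9 to 13 collagens for C26 cachexia, 2 to 9 for cachexia against pre-cachexia, 0 to 2 for pre-cachexia, 13 to 20 for 8025 cachexia and 18 to 22 for strain in whole liver nuclei. In hepatocyte nuclei it gave 7 to 10, 3 to 5, 1 to 4, 8 to 12 and 17 to 21. It gave 0 to 1 for MC38 in hepatocyte nuclei, 5 to 10 for 8025 against MC38, 5 to 9 for C26 against 8025, 0 to 2 for C26 against NC26, 24 to 27 for the fractions, and 0 elsewhere. The median over 32 collagens of each one's median share over PBS animals was 31.6%, and 28% without TMM. A minimum of 0.5 CPM kept 35 collagens and of 2 CPM 31. Size factors moved the median gene by at most 0.06 in size (log2).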
